A study of Mus musculus with 25 samples.

Results

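The comparison was between CD8+ T cells that carried PD1 and CD73 after a first pregnancy and PD1-negative CD8+ T cells from the same kind of pregnancy. It used the 6 libraries labelled Naive+Pregnant, of 25 in the series, and all 13527 peaks of the merged peak table. ATAC-seq, in which a transposase cuts accessible DNA, was run on fetus/graft-specific cells (T_FGS), which were sorted from pooled spleen and lymph nodes by binding of an OVA:Kb tetramer, OVA being a model antigen of the father. The mice were C57BL/6 females that had no graft before a semi-allogeneic pregnancy by 2W-OVA.BALB/c males, and the cells were taken in the first days after birth. N+P C1 was the PD1-negative subset (3 libraries) and N+P C5 the PD1+CD73+ subset (3 libraries), and the libraries were paired by replicate number, called animals 1 to 3 here. The labels do not say that same-numbered libraries came from one mouse, so p-values measure the spread between these samples. All 6 share the pregnancy, the tetramer and the tissue, and the labels set the subsets apart by the PD1 and CD73 gates. The other libraries used below came from mice that were never mated, without a graft (Naive, 3 libraries) or after rejecting a paternal skin graft (Sensitized, 4 libraries), and from sensitized mice after pregnancy (S+P), sorted as PD1-negative (C4, 4 libraries), PD1+CD73+ (C5, 4 libraries) or PD1+CD73- (C7, 4 libraries). The C7 libraries entered the fits and count scales over the 18 post-partum or all 25 libraries and are not compared here.

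PD1 (gene Pdcd1) is an inhibitory receptor that appears on T cells after antigen recognition and stays on chronically stimulated, exhausted cells. CD73 (gene Nt5e) is a surface enzyme that makes adenosine from AMP, and adenosine restrains T cells through the receptor encoded by Adora2a. Exhausted and memory T cells are known to keep distal elements open that are closed in naive cells, and such elements often hold binding sites of AP-1, NFAT, T-box and Runx factors.

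N+P C5 and N+P C1 had nearly the same accessible chromatin, and the differences that stood out were gains at weak distal peaks. In a paired DESeq2 fit, 2 of 13527 peaks (0.0148%) were more accessible in N+P C5 and 0 were less accessible, where a call needed a log2 fold change beyond 0.9 in either direction and an adjusted p under 0.1. With a peak inside Nt5e of smaller fold, 3 peaks (0.0222%) had such an adjusted p. At an unadjusted p under 0.05 there were 483 peaks (3.57%), 365 (2.70%) higher and 118 (0.872%) lower. The lowest C5 library was above the highest C1 library at 880 peaks (6.51%), and the reverse held at 669 (4.95%). The 95% Wald interval of the log2 fold change lay within 0.9 of zero for 12720 peaks (94.0%), and for 7614 of 7670 promoter peaks (99.3%), so for most promoters a change of that size was outside the interval. The share was lower in introns (85.5%) and between genes (88.2%).

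Library totals in peaks were between 4524243 (N+P C1, animal 3) and 8197552 (N+P C5, animal 1), against 2430890 to 25419715 over the series. Promoter peaks of Cd8a, Cd3d, Cd3e and Cd3g, which code for the CD8 and CD3 chains, were present at 207 to 558 normalized counts per kb of peak. No peak was assigned to the B cell genes Cd79a, Cd79b, Ms4a1 or Pax5, and Cd4, Zbtb7b and Foxp3 had no promoter peak. Promoter peaks were also missing for the myeloid genes other than Cd68, for all 4 NK cell genes and for the erythroid genes other than Klf1. Peaks outside promoters were assigned to Cd4 (2 peaks), to the NK cell gene Klrb1c (7 peaks) and to the myeloid gene Itgax. The Klf1 promoter peak had 532 to 643 counts per kb, near or above the top of the range of the T cell genes. That of Cd68 had 160 to 205, just under the range, and Cd8b1 had no promoter peak. Counts from fewer open cells and from less opening per cell cannot be told apart in these bulk libraries.

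Sequences of 5 peaks on which the comparison turns are given first: the 2 called peaks, the Nt5e intron peak, the distal Pdcd1 peak and the peak upstream of Cxcr3. Each is the central 300 bases on the plus strand of GRCm39. Capitals mark letters of the AP-1 (TGANTCA), NFAT (TGGAAA), Runx (AACCACA) and T-box (AGGTGTGA) motifs on either strand.
Intergenic peak nearest to Agtr1b, chr3:21180393-21180692: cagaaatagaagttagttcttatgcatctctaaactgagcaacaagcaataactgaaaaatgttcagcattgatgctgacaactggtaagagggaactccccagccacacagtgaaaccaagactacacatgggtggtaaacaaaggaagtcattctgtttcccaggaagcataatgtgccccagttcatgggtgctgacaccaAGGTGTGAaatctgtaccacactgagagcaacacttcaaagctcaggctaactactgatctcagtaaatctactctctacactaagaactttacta
Adh4 peak, intronic window, chr3:138125630-138125929: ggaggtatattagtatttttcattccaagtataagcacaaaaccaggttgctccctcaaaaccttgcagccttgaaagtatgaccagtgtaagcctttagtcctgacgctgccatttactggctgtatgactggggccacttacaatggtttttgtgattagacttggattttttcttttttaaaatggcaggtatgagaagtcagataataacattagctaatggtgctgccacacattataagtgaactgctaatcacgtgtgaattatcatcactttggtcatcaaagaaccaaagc
Nt5e intron peak, chr9:88214559-88214858: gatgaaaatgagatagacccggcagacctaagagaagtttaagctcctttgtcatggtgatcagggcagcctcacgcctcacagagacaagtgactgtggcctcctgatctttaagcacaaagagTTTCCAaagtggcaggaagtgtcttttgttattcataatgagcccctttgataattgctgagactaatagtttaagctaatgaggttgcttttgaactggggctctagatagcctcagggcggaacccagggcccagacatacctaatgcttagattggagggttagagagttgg
Distal Pdcd1 peak, chr1:94002579-94002878: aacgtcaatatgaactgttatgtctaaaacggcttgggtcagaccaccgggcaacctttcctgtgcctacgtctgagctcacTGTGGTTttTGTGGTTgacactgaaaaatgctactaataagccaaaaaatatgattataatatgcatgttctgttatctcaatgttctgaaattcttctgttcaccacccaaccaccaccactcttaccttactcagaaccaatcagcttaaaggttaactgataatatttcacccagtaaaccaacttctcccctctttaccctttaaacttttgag
Peak upstream of Cxcr3, chrX:100780919-100781218: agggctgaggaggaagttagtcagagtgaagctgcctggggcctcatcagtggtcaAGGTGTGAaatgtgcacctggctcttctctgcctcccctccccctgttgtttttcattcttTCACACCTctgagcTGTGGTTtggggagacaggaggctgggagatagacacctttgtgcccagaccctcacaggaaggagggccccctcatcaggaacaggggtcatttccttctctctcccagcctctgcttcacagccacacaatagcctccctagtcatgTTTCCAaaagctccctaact
The Cxcr3 window held the T-box letters on both strands, and the Agtr1b window held them once. Among all 5857 peaks outside promoters, 3.02% held the T-box letters, 20.1% the Runx letters, 25.5% the NFAT letters and 15.9% the AP-1 letters in a window of this length.

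The first called peak was intergenic (chr3:21180067-21181018, GRCm39), 759 kb upstream of Agtr1b, the nearest protein-coding gene. Its normalized counts were 59.0, 60.6 and 56.8 in N+P C1 and 117, 156 and 141 in N+P C5, in animals 1 to 3. All C5 libraries were above all C1 libraries, and the log2 fold change was 1.22 ± 0.26 (SE; adjusted p = 0.0204, DESeq2). The second lay within Adh4 (chr3:138124829-138126730), a gene for an alcohol dehydrogenase. It spanned 2 coding exons of the canonical transcript, Adh4-201 (chr3:138124951-138125089 and chr3:138126386-138126473), with its midpoint and the printed window in the intron between them. Its counts were 57.2, 61.5 and 41.8 in N+P C1 against 120, 118 and 143 in N+P C5. The subsets did not overlap here either, with a log2 fold change of 1.24 ± 0.28 (SE; adjusted p = 0.0505, DESeq2). In S+P C5 against S+P C4 the log2 fold change was 0.38 at the Agtr1b-nearest peak, under the fold needed for a call. At the Adh4 peak it was 1.93, which was called. Both peaks called in N+P were also called more accessible in Sensitized than in Naive cells, by 2.34 and 2.54 on the log2 scale. Neither call held when the pair of any 1 animal was left out (DESeq2 adjusted p = 1.00 without animal 1 for both), nor with loess offsets, which remove a trend of the difference with mean count (DESeq2 adjusted p = 0.649 and 1.00).

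**Figure D1:**
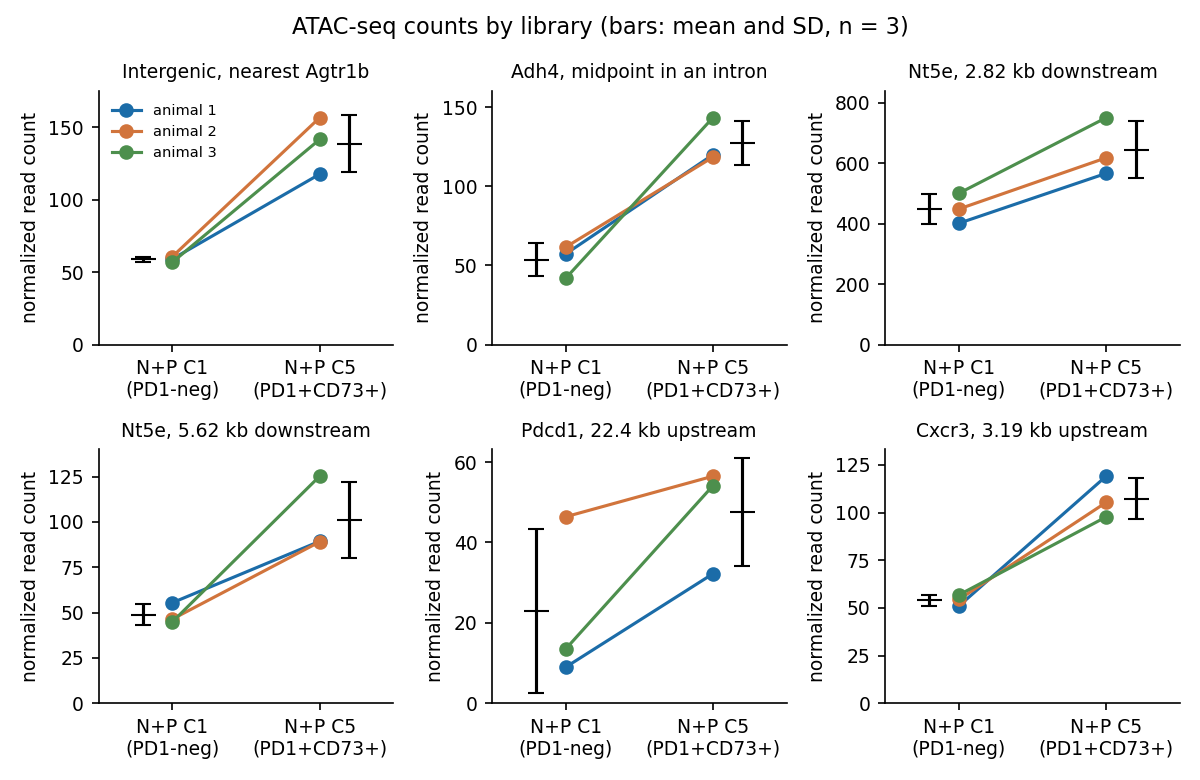
Normalized read counts (y axis) of 6 peaks in N+P C1 and N+P C5, with a line for each of the 3 animals and bars for the mean and SD of each group. At the Agtr1b-nearest peak C1 lies between 56.8 and 60.6 and C5 between 117 and 156, while at the Pdcd1 peak the C1 value of animal 2 (46.4) overlaps the C5 values.

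Nt5e, which encodes the CD73 used for the sort, had 5 peaks, and 2 of them were higher in N+P C5 at an unadjusted p under 0.05. The peak 2.82 kb downstream of the start lies in an exon of a retained-intron transcript, Nt5e-202, and overlaps no exon of the other Nt5e transcripts. It had 401, 449 and 501 counts in N+P C1 and 567, 618 and 751 in N+P C5. No C1 library reached the lowest C5 library, and the log2 fold change was 0.51 ± 0.11 (SE; adjusted p = 0.0204, DESeq2), under the fold needed for a call. With the loess offsets it was 0.53 (DESeq2 adjusted p = 0.0203), and without animal 1 it was 0.52 (DESeq2 adjusted p = 1.00). The peak 5.62 kb downstream (chr9:88214398-88215019, intron) had 55.4, 46.4 and 44.8 counts in C1 and 89.3, 89.1 and 125 in C5. The groups were again apart, with a log2 fold change of 1.02 ± 0.30 (SE; adjusted p = 0.436 in the paired DESeq2 fit, 0.00321 in edgeR with the same block). The Nt5e promoter peak had 318, 361 and 333 counts in C1 and 348, 377 and 423 in C5, so its groups overlapped (log2 fold change 0.18, 95% interval -0.09 to 0.44).

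Pdcd1, which encodes PD1, also had 5 peaks and none was called in the paired fit. The peak 22.4 kb upstream (chr1:94002326-94003130) had 8.94, 46.4 and 13.4 counts in N+P C1 and 32.2, 56.5 and 54.1 in N+P C5. Every animal was higher in C5, but the C1 library of animal 2 overlapped the C5 range. The log2 fold change was 1.30 ± 0.48 (SE; adjusted p = 0.928, DESeq2), and the peak was called by edgeR with the block (adjusted p = 0.0611). The value was 1.93 without animal 2 and 0.78 with loess offsets. The peak 3.02 kb upstream had 34.9, 52.6 and 70.2 counts in C1 and 86.1, 74.9 and 73.1 in C5, a log2 fold change of 0.62 (95% interval -0.03 to 1.28). This value was 0.29 without animal 1 and 0.30 with loess offsets, and the differences were 1.28, 0.50 and 0.06 in the 3 animals. The remaining 3 Pdcd1 peaks had log2 fold changes between -0.003 and 0.02. Since the cells were sorted on these 2 proteins, their loci check the labels rather than add a result.

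Below the calls, 3 peaks among those with the smallest p that were higher in every animal are described. The peak 8.87 kb upstream of Ppp4r2, a phosphatase subunit gene, had 105, 91.9 and 98.6 counts in C1 and 204, 157 and 182 in C5 (log2 fold change 0.87 ± 0.21, SE; adjusted p = 0.125, DESeq2). The peak 11.4 kb upstream of Mstn, the myostatin gene, had 9.83 and 7.14 counts in C1 animals 1 and 2, no more than 12 in animal 3, and 39.4, 28.2 and 56.9 in C5 (log2 fold change 2.08 ± 0.53, SE; adjusted p = 0.171, DESeq2). The subsets did not overlap at either peak. The peak nearest to Gm5148 had a log2 fold change of 1.52 (adjusted p = 0.171, DESeq2).

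Some other fits called more peaks, all of them higher in N+P C5. edgeR with the block called 71 peaks (0.525%), DESeq2 with the block on the 18 post-partum libraries called 73 (0.540%), and 53 were shared. At an unadjusted p under 0.05, edgeR had 1012 peaks higher (7.48%) and 715 lower (5.29%), the 18-library fit 743 (5.49%) and 158 (1.17%), and the loess offsets 211 (1.56%) and 100 (0.739%). DESeq2 without the block called 9 (0.0665%), with 433 (3.20%) higher and 105 (0.776%) lower at that p. These 53 were assembled after the values were seen, so what follows describes them and their N+P folds support nothing further. They had median log2 fold changes of 1.15, 1.27 and 1.44 in the 3 animals, and 50 of the 53 had all C5 libraries above all C1 libraries. Their mean counts were low, between 7.60 and 107, and all 53 belonged to the lowest quintile of mean count. Only 3 were promoter peaks, against 56.7% of all peaks, and 24 lay in introns, 24 between genes and 2 in exons. With loess values 48 of the 53 were still higher in C5 in 3 of 3 animals, with a mean of the animals' medians of 0.82, although no peak was called.

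**Figure D2:**
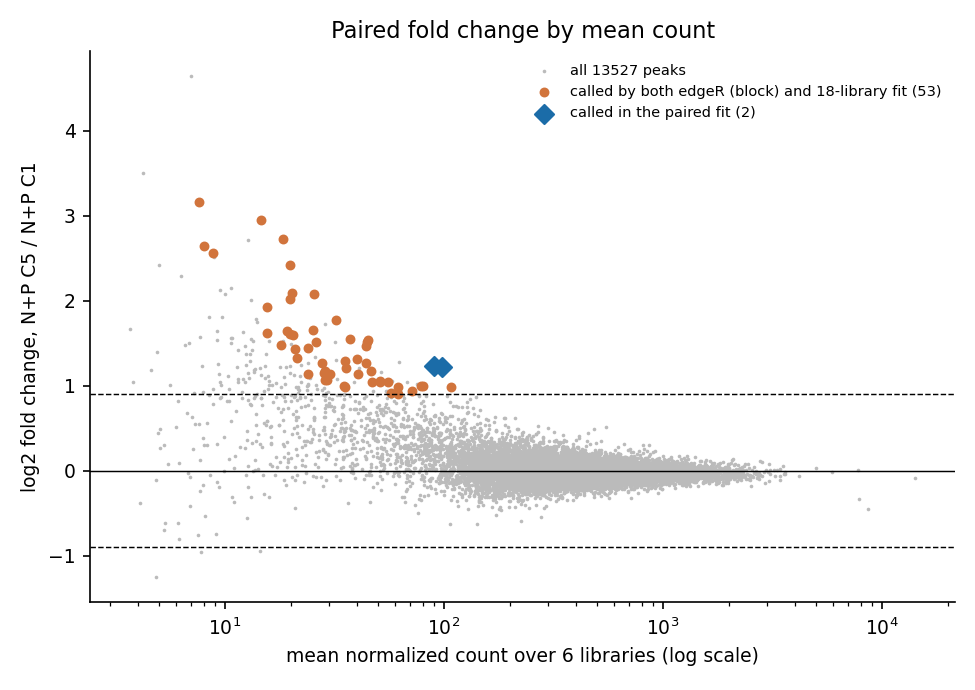
Log2 fold change of N+P C5 over N+P C1 (y axis) against the mean normalized count over the 6 libraries (x axis, log scale) for all peaks, with the 53 peaks called by edgeR and the 18-library fit in orange, the 2 called in the paired fit as diamonds, and dashed lines at 0.9 and -0.9. The coloured peaks lie above the upper line at mean counts from 7.60 to 107.

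Several of the 53 lie near genes of activated T cells. Il10, which encodes an inhibitory cytokine, had 3 of them: the intron peak (chr1:130949223-130951143) had 18.8, 21.4 and 40.3 counts in C1 and 60.4, 63.0 and 59.8 in C5. Those groups did not overlap, and the peak 16.4 kb upstream was higher too, with a log2 fold change of 1.33. The peak 19.3 kb upstream had only 2.68, 1.78 and 0 counts in C1 and 9.66, 16.3 and 15.2 in C5, so its fold (log2 3.16 ± 1.11, SE) is loose. Ptger2, a receptor for the inhibitory lipid prostaglandin E2, had 2, at 53.0 and 114 kb (1.17 and 1.63). The peak 3.19 kb upstream of Cxcr3, which encodes a chemokine receptor of effector cells, had 51.0, 54.4 and 56.8 counts in C1 and 119, 105 and 97.7 in C5. It was higher in every animal, with a log2 fold change of 0.99. A peak 63.6 kb upstream of Rbpj, the nuclear partner of Notch, had 33.1, 34.8 and 23.9 counts in C1 and 66.0, 60.8 and 62.6 in C5. An intron peak of Tnfrsf8 (CD30) had 37.5, 33.0 and 28.4 against 74.0, 56.5 and 78.8 counts, and a peak near Tnfsf9, the gene of the ligand of 4-1BB, had a log2 fold change of 1.65. The subsets did not overlap at Rbpj, Tnfrsf8 or Tnfsf9. An intron peak of Tbx21, the gene of the effector factor T-bet, had 0.894, 1.78 and 4.48 counts in C1 and 20.1, 9.77 and 11.4 in C5, and its fold (log2 2.65 ± 1.02, SE) is loose too. Ubash3b, a negative regulator of T cell receptor signals, had an intron peak with 8.05, 15.2 and 5.98 counts in C1 and 23.3, 27.2 and 28.5 in C5.

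The same peaks were read in other groups. In Sensitized against Naive cells all 53 had a positive fold change, as did 96.2% of 910 other peaks outside promoters in the same range of mean count. Those 910 shared only the range, with a median mean count of 51.7 against 30.1 in the 53. The 53 also include promoter peaks, so the 2 sets are not matched. Of the 53, 44 (83.0%) were called higher, against 68.8% of those 910 and 6.96% of all peaks. In S+P C5 against S+P C4, 51 of the 53 (96.2%) were higher, against 79.9% of those 910 peaks and 47.9% of all peaks, and 32 (60.4%) were called higher, against 31.8% and 3.27%. S+P libraries entered the 18-library fit that helped choose the 53, though not the N+P difference itself. The AP-1 letters were in 21 of the 50 outside promoters, against 28.8% of the 910 peaks and 15.9% of all peaks outside promoters.

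Peak sets chosen in other libraries had medians of one sign in all 3 animals. The 941 peaks (6.96%) that opened in Sensitized against Naive cells had median log2 differences between N+P C5 and N+P C1 of 0.43, 0.37 and 0.40 in animals 1 to 3. Of them, 532 (56.5%) were higher in 3 of 3 animals and 10 lower, where 16.8% and 16.4% of all peaks were. At an unadjusted p under 0.05, 196 were higher and 0 lower, against 2.70% and 0.872% of all peaks. In the 442 peaks (3.27%) that opened in S+P C5 relative to C4 the medians were 0.45, 0.34 and 0.46, with 258 (58.4%) higher in 3 of 3 animals. The 300 peaks (2.22%) that closed in S+P C5 had medians of -0.02, -0.10 and -0.08 in N+P, and the 162 (1.2%) that closed in Sensitized cells -0.03, -0.08 and -0.05. With loess values the opening sets fell to 0.12 (Sensitized) and 0.15 (S+P C5) as means of the animals' medians, still above zero in every animal.

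**Figure D3:**
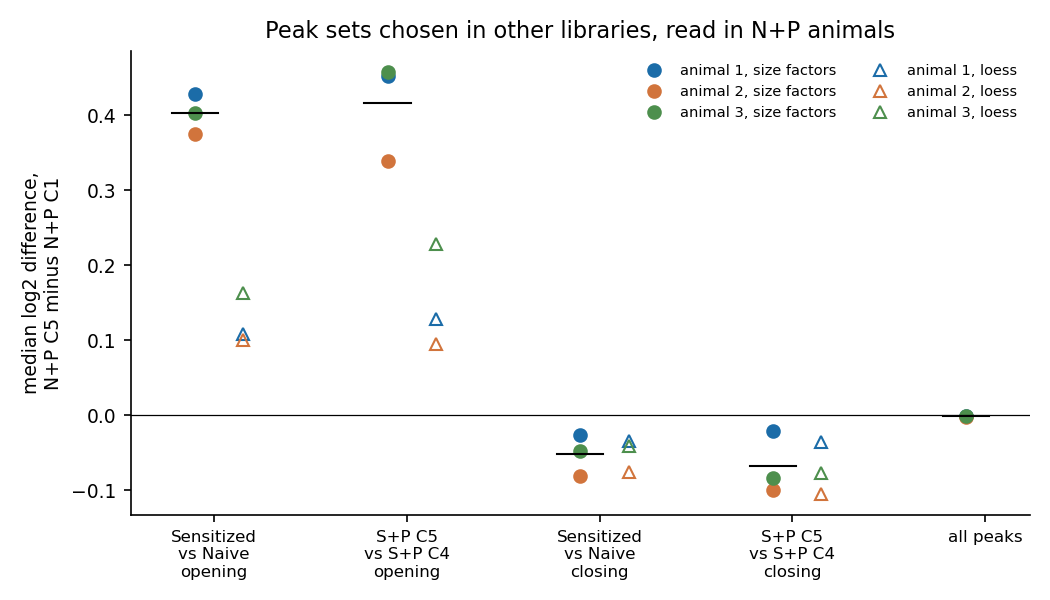
Median log2 difference of N+P C5 minus N+P C1 (y axis) in peak sets chosen in other libraries and over all peaks, for each animal with size factors (circles, line at the mean) and, for the 4 sets, with loess values (triangles). Both opening sets lie between 0.34 and 0.46 with size factors and between 0.10 and 0.23 with loess values, and all peaks lie at zero.

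The shift varied with mean count and with peak class. Promoter peaks had a mean of the animals' medians of -0.02 and introns 0.05. Peaks outside promoters in the lowest quintile of mean count (1914 peaks) had 0.22, 0.19 and 0.18 in animals 1 to 3, and 41.5% of them were higher in 3 of 3 animals against 5.12% lower. Loess values, which take out a dependence on mean count, brought the mean from 0.20 to 0.02 in these peaks. The part of the libraries in this shift was not tested. Within that quintile, the 816 peaks that opened in Sensitized cells had 0.46, 0.40 and 0.43, and the 1098 others 0.12, 0.10 and 0.08. These sets were not matched on count, with median mean counts of 47.3 and 142.6, and the 910 peaks in the count range of the 53 (median 51.7) had 0.39, 0.32 and 0.33. Across all peaks the log2 fold change of N+P C5 over N+P C1 correlated with that of S+P C5 over S+P C4 at r = 0.48 (n = 13527 peaks, no shared library), and at 0.26 with loess values in N+P. Its correlation with the log2 fold change of Sensitized over Naive cells was higher, at r = 0.61 (n = 13527 peaks, size factors).

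Peaks outside promoters that held the AP-1 letters were higher relative to those without them by 0.08, 0.07 and 0.09 on the log2 scale in the 3 animals. For the T-box letters the differences were 0.12, 0.09 and 0.14. With loess values both motifs had means of 0.04. Of 10 motifs read in this way, NR4A (AAAGGTCA, 93 peaks) had a mean of 0.09, NF-kB (57 peaks) 0.08, Runx and KLF (CCACACCC) 0.03, NFAT 0.02, ETS (ACAGGAAG) 0.002 and TCF/LEF (ATCAAAG) -0.001, while CTCF (30 peaks) had -0.07.

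Gene lists were read by the share of their peaks that were higher in N+P C5 in 3 of 3 animals, which was 16.8% for all peaks (16.4% lower). That share was 26.1% for peaks outside promoters, and 41.5% for those of them in the lowest quintile of mean count. The lists were not matched to all peaks on mean count or class. No list had a called peak in the paired fit. Effector genes had 27 of 67 peaks higher (40.3%) and 2 lower, with Tbx21, Xcl1, Gzma and Cxcr3 among the 9 higher at an unadjusted p under 0.05. The Xcl1 promoter peak, at the gene of a chemokine for cross-presenting dendritic cells, had a log2 fold change of 0.65 and the Gzma intron peak, at the gene of a granzyme, 0.69. Genes of exhaustion-associated transcription factors had 29 of 86 (33.7%) higher and 5 lower, including an Nfatc1 intron peak (0.85) and a peak 106 kb from Bhlhe40 (0.44). The adenosine pathway had 10 of 22 (45.5%) higher and 0 lower, with an intron peak of Adora2a at 0.89 (0.86, 0.88 and 0.89 in the 3 animals; adjusted p = 0.755, DESeq2). Without the peaks of Nt5e, whose protein was sorted on, 6 of 17 (35.3%) of that list were higher, and 29.4% with loess values. With loess values the 3 whole lists had shares of 22.4%, 23.3% and 40.9%, where all peaks had 15.1% higher and 16.3% lower. The lists' means of the animals' medians were 0.05, 0.04 and 0.13, with the effector genes below zero in animal 1 (-0.03).

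Naive and stem-like genes had 28 of 123 peaks (22.8%) higher and 13 (10.6%) lower, activation and memory surface genes 14 of 51 (27.5%) and 6, and co-inhibitory receptors 10 of 28 (35.7%) and 6. The surface genes included 4 Cd44 peaks higher at an unadjusted p under 0.05, as were 2.70% of all peaks, and none had an adjusted p under 0.1 (DESeq2). Their log2 differences were 0.18 to 0.22 in animal 1 and 0.36 to 2.66 in animals 2 and 3. Cd44 encodes the adhesion receptor that marks antigen-experienced T cells. Anergy and T cell receptor feedback genes had 24 of 114 (21.1%) higher, among them 3 intron peaks of Cblb, a ubiquitin ligase that limits activation (0.19 to 0.40). T cell receptor signalling genes had 15 of 80 (18.8%) and cell cycle genes 3 of 23 (13.0%), close to the share of all peaks. Cytosolic ribosomal protein genes had 5 of 75 (6.67%) higher and 15 lower. Loess values turned the mean of the T cell receptor signalling list from 0.02 to -0.002 and brought that of the co-inhibitory receptors from 0.05 to 0.0007. They left the activation and memory surface genes with 8 of 51 peaks higher (15.7%) and 6 lower, near the 15.1% higher of all peaks. The co-inhibitory receptors then had 7 of 28 higher and 7 lower, and the anergy and feedback genes 19 of 114 higher. The naive and stem-like genes went the other way, to 32 of 123 higher.

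**Figure D4:**
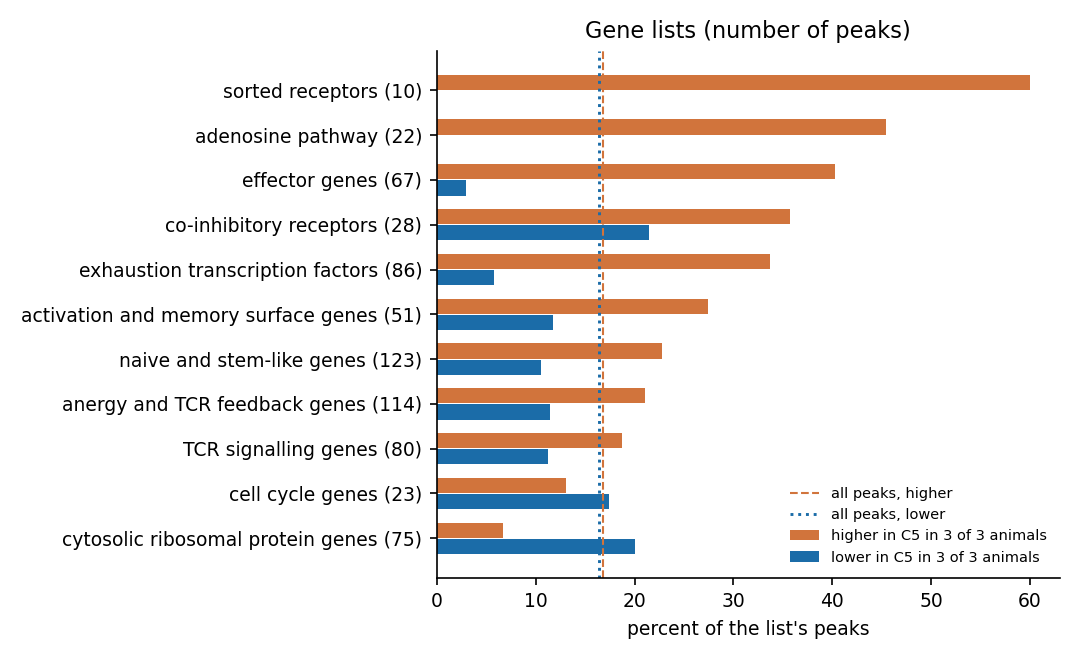
Percent of each list's peaks (x axis; the number of peaks stands in brackets) that were higher (orange) or lower (blue) in N+P C5 in 3 of 3 animals, with lines for all peaks at 16.8% and 16.4%. The bars for higher peaks run from 6.67% (ribosomal protein genes) to 60.0% (the 2 sorted receptors).

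At the starts of genes that define exhausted, memory and naive states no peak was called, and most intervals were narrow. The Tox promoter, at a regulator of exhaustion, had 1162, 1186 and 1176 counts in N+P C1 and 1103, 1147 and 1173 in N+P C5 (log2 fold change -0.04, 95% interval -0.20 to 0.11). The promoter of Tcf7, the gene of the stem-like factor TCF1, gave -0.01 (interval -0.20 to 0.19), that of Bach2 -0.03 (-0.18 to 0.12) and that of Satb1 0.06 (-0.10 to 0.23). Tigit, an inhibitory receptor gene, gave 0.13 (-0.04 to 0.30) and Ctla4 -0.12 (-0.36 to 0.12). The promoter of Ifng had 102, 78.5 and 65.7 counts in C1 and 115, 110 and 102 in C5, higher in every animal, and its interval was wide (0.42, -0.09 to 0.93). The start peaks of Nfatc1, Nfat5, Nr4a1, Maf, Eomes, Lef1, Il7r, Gzmb, Cd44 and Il2ra had log2 fold changes between -0.16 and 0.18. Entpd1, which encodes the CD39 enzyme upstream of CD73, had no promoter peak, and its intron peak 53.6 kb downstream of the start had at most 22.4 counts in any of the 6 libraries (-0.76 ± 0.97, SE). No peak was assigned to Lag3 or Tnfsf4. The 5 peaks with the smallest p among those lower in C5 in every animal were not called. Of them, 2 were intergenic, 224 kb upstream of Sall3 and 15.5 kb upstream of Dtwd2, with log2 fold changes of -0.54 and -0.44. The other 3, the promoters of Car2, Sod1 and Gria3, had -0.32, -0.26 and -0.32, and the 5 adjusted p were from 0.452 to 0.713 (DESeq2).

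Whether the PD1+CD73+ difference was the same in sensitized mice was tested by its interaction with the background. The fit used 14 libraries with a block for each of 7 animals. The paper describes N+P C1 as resembling Naive cells and S+P C4 as resembling Sensitized cells, so the reference subsets differ. The interaction cannot tell a difference between the C5 subsets from a difference between C1 and C4. It was called at 519 peaks (3.84%), of which 218 (1.61%) had the higher difference in S+P and 301 (2.23%) the lower. Without the block it was called at 211, and on all 25 libraries at 80. At the 218 the median log2 fold change was 0.26 in N+P and 1.66 in S+P, and at the 301, likewise chosen for their difference, it was -0.003 in N+P and -1.15 in S+P. The Tox2 promoter, at a partner of Tox, had 195, 212 and 198 counts in N+P C1 and 186, 186 and 206 in N+P C5, on a scale over all 25 libraries. In S+P it had 235, 201, 134 and 170 counts in C4 and 638, 810, 442 and 484 in C5. N+P subsets overlapped and S+P subsets did not, and the difference between the backgrounds was 1.74 ± 0.22 (SE, log2; adjusted p = 2.19e-12, DESeq2). A peak 335 kb upstream of Satb1, the gene of a chromatin organizer of T cells, had 691, 961 and 1134 counts in N+P C1 and 704, 888 and 963 in N+P C5, against 977, 1007, 820 and 633 in S+P C4 and 385, 214, 233 and 219 in S+P C5. There the difference was -1.60 ± 0.17 (SE, log2). By gene list, the peaks with a higher and a lower difference in S+P were 2 and 14 of 123 among naive and stem-like genes, 6 and 3 of 86 among exhaustion-associated transcription factors, 4 and 1 of 67 among effector genes and 5 and 3 of 114 among anergy and feedback genes. They were 3 and 2 of 28 among co-inhibitory receptors, 1 and 4 of 80 among T cell receptor signalling genes, 1 and 1 of 75 among ribosomal protein genes and 0 of 51 among activation and memory surface genes. The adenosine pathway, the cell cycle genes and the sorted receptors had 1 higher and 0 lower each. The shares of all peaks were 1.61% higher and 2.23% lower.

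**Figure D5:**
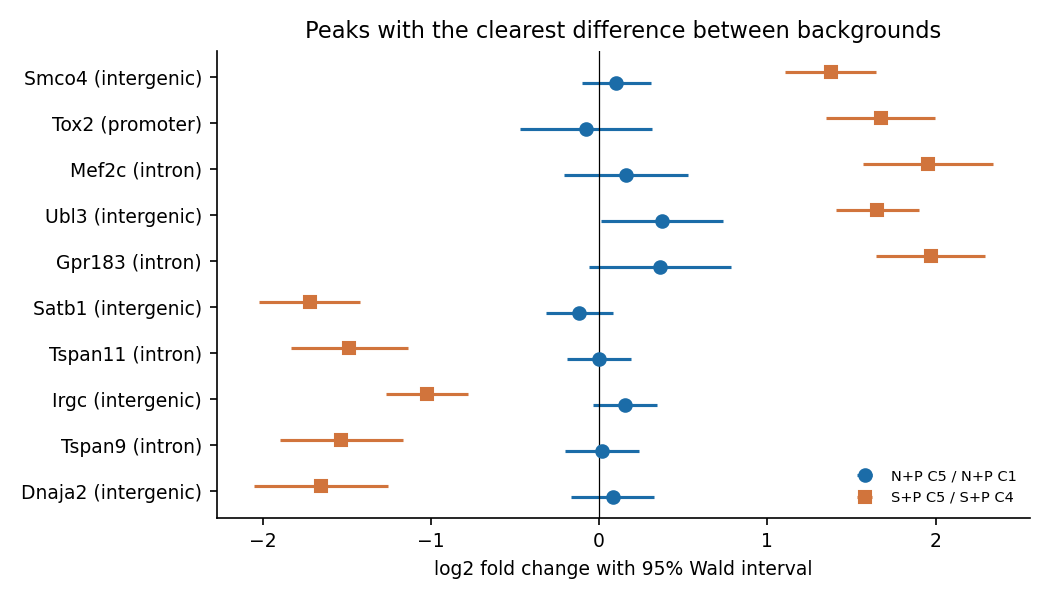
Log2 fold change with its 95% Wald interval (x axis) of PD1+CD73+ over PD1-negative cells at 10 peaks with the smallest interaction p, 5 in each direction, in N+P (blue) and S+P (orange); rows are named by nearest gene. N+P values run from -0.12 to 0.37 and S+P values lie beyond 1.02 in absolute size.

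The deposited peak list of N+P C5 had 8479 peaks and that of N+P C1 8602, and 92.1% of the first and 91.2% of the second were overlapped by the other by at least 1 base. The lists combine peaks called in each library of a group and give no value per replicate. Both called peaks were among 4382 peaks of the merged table that overlapped neither list, of which 281 were higher and 9 lower in N+P C5 at an unadjusted p under 0.05. The lists were called from these libraries, which sets the sign of the count difference at peaks of 1 list alone. Counts at the 642 peaks overlapped by the C5 list alone were higher by 0.05, 0.07 and 0.07 (median log2) in the 3 animals, and at the 735 overlapped by the C1 list alone lower, at -0.07, -0.08 and -0.10.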

How the data were processed

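ATAC-seq counts of 25 libraries were analysed, and the 6 N+P libraries carry the comparison. The authors trimmed reads with cutadapt 3.4, aligned them to GRCm39 with Bowtie2 2.2.9, removed duplicates with Picard 2.21.8, called peaks in each library with Genrich 0.6.1, combined those reproduced within a group with ChIP-R, merged reproducible peaks of all groups with bedtools 2.27.1 and deposited the raw count of reads per peak. The deposited peak lists carry the q-values that ChIP-R gave the authors per group. The merged peaks depend on every group, so peaks open in a single subset can be weak in the others.

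Counts were tested with DESeq2 1.42.0 (R 4.3.3, Wald test, replicate number as a block, Benjamini-Hochberg over all peaks), and DESeq2 substituted a local dispersion trend in the interaction fit, in several of its alternatives and in the 18-library fit, but not in the paired fit of N+P C5 against N+P C1. Same-numbered libraries deviated together (r = 0.41, 0.11 and 0.30 for numbers 1 to 3), and crossed numbers gave -0.34 to 0.03. edgeR 4.0.16, loess offsets from the loess function of R (span 0.4), other library sets and left-out animals were alternatives. Differences per animal used log2(normalized count + 1). Peaks were named for the nearest protein-coding start, and promoter peaks have their midpoint within 1000 bp of one. Named peaks were those called, up to 5 per direction by p, 5 per direction of the interaction, all Pdcd1 and Nt5e peaks, listed gene starts and the extremes of each list. The shared calls and other list peaks were chosen after their values were seen. The comparison and the gene lists were chosen with earlier results of these data known. Statistics were tested on simulated data. Some peaks that meet the rule for named peaks, a marker gene and the sequence of an Nt5e peak are not reported here.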

Additional observations from a re-analysis of the deposited data

Results flagged for a closer look

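The difference between PD1+CD73+ and PD1-negative cells differed between N+P and S+P at 519 peaks by the interaction test. Among the 10 with the smallest p, the S+P difference was higher by 1.27 (log2) near Smco4, 1.74 at the Tox2 promoter, 1.79 in a Mef2c intron, 1.27 near Ubl3 and 1.60 at a peak nearest to Gpr183. It was lower by -1.60 at the distal Satb1 peak, -1.48 near Tspan11, -1.18 near Irgc, -1.55 near Tspan9 and -1.73 near Dnaja2. Tspan11 and Dnaja2 lost the call without the block (DESeq2 adjusted p = 0.156 and 0.290) and on all 25 libraries (0.220 and 0.521), where Tspan9 lost it too (0.199).

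In S+P C4, 1 library stood apart at the Ubl3 peak, with a gap to its neighbour of 0.831 of the group's range. In S+P C5, library 1 stood apart at the distal Satb1 peak (385 counts, the others 214 to 233), with a gap of 0.891 of the range. Chance alone sets about 1 in 20 groups apart in this way. Without S+P animal 4 the Ubl3 difference was 1.22, and without S+P animal 1 the Satb1 difference was -1.74.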

How the results depend on the processing

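The count of called peaks, all of them opening, was 2 with the replicate block, 9 without it, 73 with the block on 18 libraries, 71 in edgeR with the block and 1 at an adjusted p under 0.05. It was 0 on all 25 libraries (DESeq2), 0 in edgeR without the block, 0 with loess offsets and 0 to 0 without each animal in turn. At an unadjusted p under 0.05 these settings gave 276 higher and 32 lower (all libraries), 575 higher and 212 lower (edgeR without the block), 211 higher and 100 lower (loess), 87 higher and 18 lower (without animal 1), 117 higher and 16 lower (without animal 2), 99 higher and 15 lower (without animal 3). The interaction was called at 519 peaks, at 211 without the block (134 higher, 77 lower) and at 80 on all 25 libraries (56 higher, 24 lower). Without 1 animal it was called at 366 to 617, with 145 to 234 higher (145 without N+P animal 2) and 202 to 392 lower.

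In the S+P opening set the median difference was 0.42, and 0.15 with loess values, 0.35 with a pseudocount of 10 and 0.28 in peaks with at least 50 counts. In the Sensitized opening set it was 0.40, and 0.12, 0.33 and 0.34 in the same settings. Without 1 animal the medians were 0.40 to 0.45 and 0.39 to 0.42. Overlap of the peak lists at q under 0.05 was 89.6% and 89.3%.

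Sign changes occurred at peaks that were not called. The Pdcd1 intron peak (0.02) turned to -0.41 with loess offsets. The Pdcd1 peak 26.7 kb upstream (-0.003) turned to 0.012 on all 25 libraries, 0.0042 on 18, 0.0093 with total counts and 0.0021 with the count minimum, and that 39.4 kb upstream (0.007) to -0.0025 in edgeR without the block. The Tcf7 promoter (-0.008) turned to 0.00051 on 18 libraries, 0.0046 with total counts and 0.011 with loess offsets. Leaving out 1 animal gave ranges of -0.10 to 0.15, -0.18 to 0.14 and -0.065 to 0.13 for these Pdcd1 peaks, -0.034 to 0.14 for the Nt5e peak 85.3 kb upstream, -0.036 to 0.080 for Nfatc1, -0.30 to 0.15 for Nr4a1, -0.045 to 0.067 for Maf, -0.022 to 0.0055 for Tcf7, -0.15 to 0.052 for Lef1, -0.23 to 0.051 for Il7r, -0.39 to 0.21 for Gzmb and -1.25 to 0.17 for Entpd1. The cause was not tested. Over all results and alternatives, 700 values kept direction and call, 25 changed sign, 18 lost and 9 gained a call, and 35 counts, medians or shares moved by more than the replicate spread or 1.5 times.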
